A study of Danio rerio with 6 samples.

Results

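The genes of the receptors for GABA and glycine, and of gephyrin, the scaffold that holds them at synapses, were compared between Lurasidone-exposed and control zebrafish larvae. Members were taken by gene name, as every gene whose symbol begins with gabr, gabbr, glra, glrb or gphn. The rule used no measured value, but the set was chosen with earlier results of these data known. The rule gave 33 of the 39214 genes in the expression table, on 15 chromosomes and in 10 classes of subunit.

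Whole transcriptomes were measured by paired-end RNA-seq in 6 libraries of AB wild type zebrafish larvae at 5 days post-fertilization (dpf), 3 of them controls and 3 exposed to 4 mg/L Lurasidone, an atypical antipsychotic that acts at dopamine and serotonin receptors. The labels start the exposure at 3 hours post-fertilization (hpf) and the methods of the study at 5 hpf, and both end it at 5 dpf. The labels call the other group only control, and the methods name a DMSO solvent control and 3 biological replicates a group. The labels give larvae as the tissue, and the methods name entire larvae in one place and brain tissue in another.

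Expression was given as FPKM (fragments scaled to the length of the gene model and the size of the library), so levels can be compared between genes of different length. The libraries held 11749887 to 15107664 fragments, of which 4585 to 5924 fell on the 33 members. Mitochondrial genes took 3.60% to 4.26% of the fragments in 5 libraries and 1.41% in control replicate 2. Summed markers of skeletal muscle (9923 to 16354 FPKM), liver (2415 to 4099 FPKM) and skin (1460 to 2565 FPKM) were present in all 6 libraries beside those of neurons (829 to 1151 FPKM). A bulk library gives 1 level per gene for the whole sample, and fewer cells of a type and less RNA per cell cannot be told apart.

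GABA-A receptors are chloride channels built from a ring of subunits, and most of those at synapses in vertebrates combine alpha and beta subunits with a gamma subunit. Receptors with a delta subunit in its place lie mostly outside synapses, and rho subunits form receptors best known from the retina. Glycine receptors are rings of alpha subunits alone or of alpha with beta, and the beta subunit binds gephyrin. GABA-B receptors are not channels but pairs of G protein-coupled subunits.

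The gephyrin gene gphnb was lower, the rho subunit gene gabrr2a was higher, and no other tested member passed the test. Both calls were lost in 5 of the 6 fits that left out 1 library, and both were made by voom, limma's method for fragment counts. Of the 33 members, 30 reached at least 0.5 FPKM in at least 3 libraries and were tested with limma on log2(FPKM + 1), and the other 3 were gabrb1, glra4b and glrbb. With p-values adjusted by Benjamini-Hochberg over all 23409 tested genes and a threshold of 0.05, 1 member was higher (gabrr2a), against 5.79% of all tested genes in that direction. Likewise 1 member was lower (gphnb), against 3.9% of all tested genes in that direction. Together these 2 were 6.67% of the 30 tested members, against 9.70% of all tested genes. With so few calls, no difference between these shares was read, and none was tested.

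No member also reached a log2 fold change of 1 in either direction, the fold threshold that the study adds for a differentially expressed gene, and 3.83% of all tested genes met both conditions. The count by voom was 0 as well. At an unadjusted p of at most 0.05, 2 members were higher (gabrr2a and gabbr1b) and 2 lower (gphnb and gphna), which is 13.3% of the members against 28.2% of all tested genes. The log2 fold changes of the members ran from -0.71 to 0.70 with a median of 0.07, against -0.02 over all tested genes, with 18 positive and 12 negative. Their median size was 0.24, against 0.28 over all tested genes. On this scale, whose pseudocount narrows the values of low genes, all 28 members that missed the threshold had a 95% interval within -1 to 1, with the lowest bound at -0.98 and the highest at 0.96. By voom, which has no such pseudocount on FPKM, 15 of the 28 had an interval past 1 in size, with bounds from -2.12 (glrba) to 1.95 (gabrz). These 15 had mean levels of at most 4.63 FPKM, so for low members a change of more than 2-fold was not excluded.

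**Figure D1:**
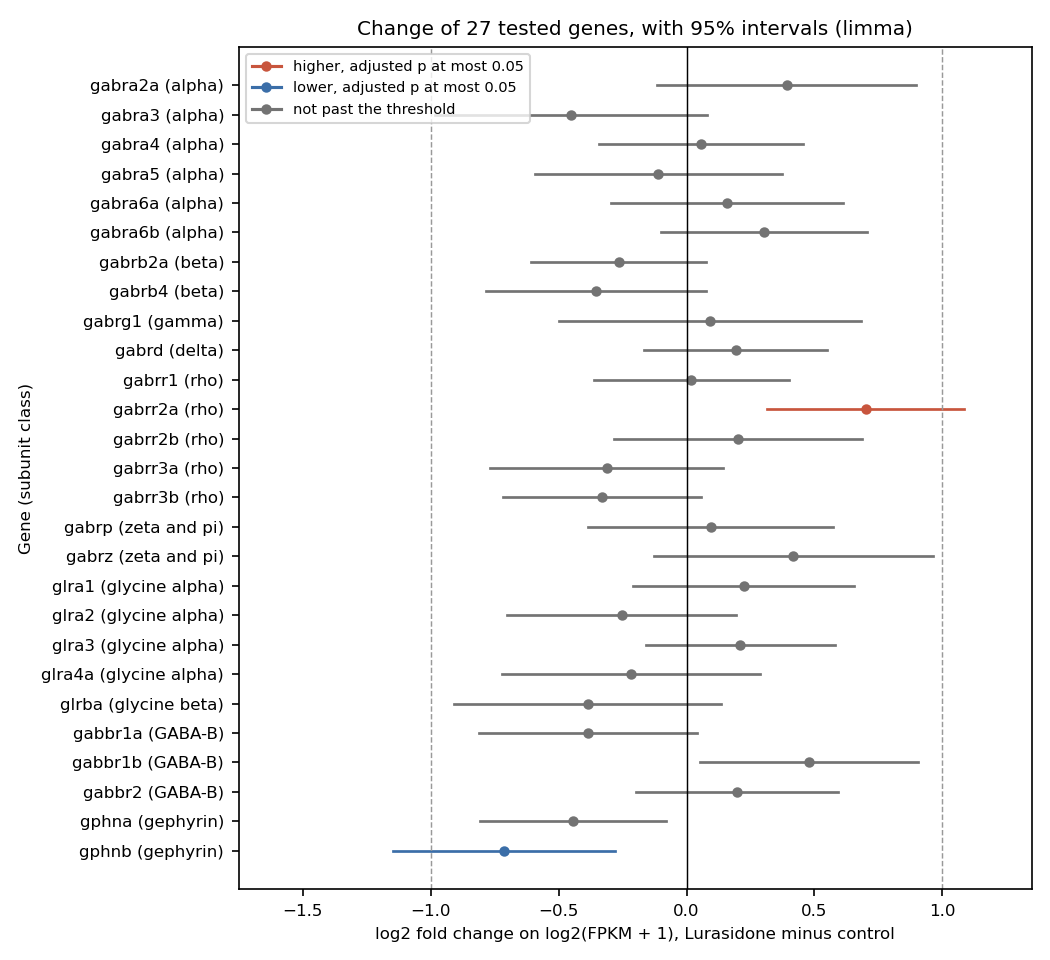
Log2 fold change of 27 tested genes on the log2(FPKM + 1) scale, Lurasidone minus control, with the 95% interval from limma (bars) and dashed lines at a log2 fold change of 1 in size. Only gabrr2a (0.70) and gphnb (-0.71) passed the adjusted threshold, and the intervals of the other 25 genes lie between the dashed lines on this scale, which the pseudocount narrows for low genes (by voom, 15 uncalled members had an interval past 1 in size).

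The levels of the 3 control libraries and of the 3 Lurasidone libraries did not overlap for 8 of the 30 tested members (26.7%), against 33.3% of all tested genes. Of the 8, gabra6b, gabrr2a and glra3 were higher in all Lurasidone libraries, and gabrb2a, gabrr3b, gabbr1a, gphna and gphnb were lower in all of them. For a single gene, an exact permutation test of 3 against 3 libraries cannot give a two-sided p below 0.1.

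Mean levels over the 6 libraries ran from 0.0323 FPKM (glrbb) to 18.8 FPKM (gabrd), with 7 members at 5 FPKM or more and 7 under 1 FPKM. The most abundant was gabrd, the delta subunit, followed by gabrr1 (12.4 FPKM), gphnb (11.3 FPKM), gphna (10.3 FPKM) and gabrb2a (9.60 FPKM). The tested members had a median level of 3.08 FPKM, close to the 3.72 FPKM of all tested genes, and a median gene length of 2363 bases against 2320.

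**Figure D2:**
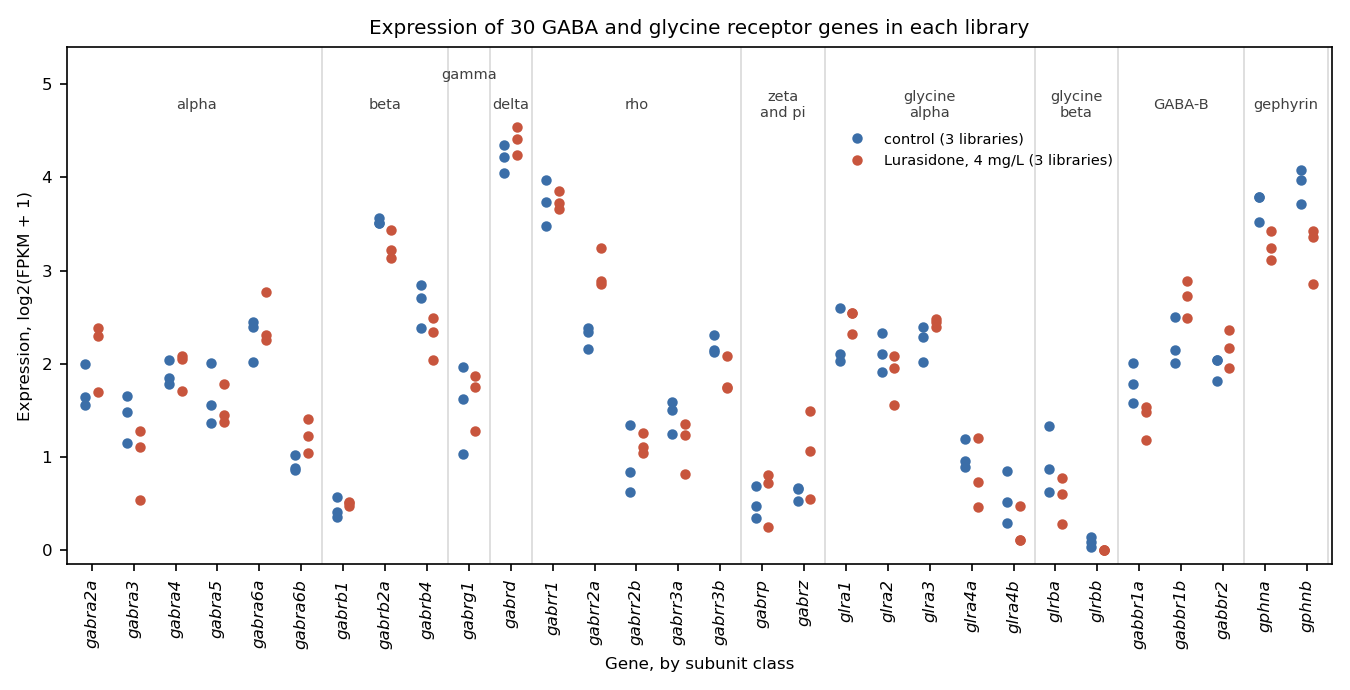
Level of 30 genes in each library as log2(FPKM + 1), grouped by subunit class, with control libraries in blue and Lurasidone libraries in red. The groups overlap for most genes. They stand apart for gabra6b, gabrr2a and glra3 (Lurasidone above). They also stand apart for gabrb2a, gabrr3b, gabbr1a, gphna and gphnb (Lurasidone below). The untested glrbb also lies below, but held only 4, 2 and 1 fragments in control libraries and 0 in each Lurasidone library. An unnamed model on an alternate contig held 99.5% of the FPKM of gene and model together, and with it added the groups overlapped. Of all tested genes, 33.3% had groups that stood apart.

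Gephyrin binds glycine receptor beta subunits and several GABA-A receptor alpha subunits and fixes them to the cytoskeleton, and it also catalyzes the last steps of molybdenum cofactor synthesis. Zebrafish carry a pair of gephyrin genes. In gphnb (chromosome 20, 50852356 to 50999404, plus strand, GRCz11), the control libraries stood at 14.7, 15.9 and 12.2 FPKM and the Lurasidone libraries at 9.25, 6.23 and 9.71 FPKM. All 3 Lurasidone libraries lay below all 3 control libraries, and Lurasidone replicate 2 was the lowest. The log2 fold change was -0.71 ± 0.19 (SE, n = 3 per group, limma adjusted p = 0.0482), a mean of 8.40 ± 1.89 FPKM against 14.3 ± 1.92 FPKM (SD).

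The second gephyrin gene, gphna (chromosome 17, 33999630 to 34185513, plus strand), stood at 12.9, 12.9 and 10.5 FPKM in control libraries and at 9.72, 7.64 and 8.48 FPKM in Lurasidone libraries. The groups again did not overlap, with the same library lowest, but the change did not pass the threshold (log2 fold change -0.44 ± 0.16 SE, limma adjusted p = 0.112). The summed level of both genes was 26.3 ± 3.25 FPKM in control and 17.0 ± 2.75 FPKM in Lurasidone libraries (SD, n = 3), a ratio of 0.646 with no overlap between the groups.

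The gphnb call was lost when any library other than control replicate 3 was left out. Its adjusted p was 0.151 without control replicate 1, 0.121 without control replicate 2, 0.0738 without Lurasidone replicate 1, 0.125 without Lurasidone replicate 2 and 0.0746 without Lurasidone replicate 3, and 0.0408 without control replicate 3. The log2 fold change stayed between -0.82 and -0.54 in these 6 fits. By voom it was -0.78 with an adjusted p of 0.0242.

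The rho subunits form receptors without alpha or beta partners, known from the bipolar cells of the vertebrate retina. Among the 5 rho genes, gabrr2a (chromosome 17, 15845765 to 15892623, plus strand) stood at 3.46, 4.08 and 4.23 FPKM in control libraries and at 6.23, 8.46 and 6.42 FPKM in Lurasidone libraries. Every Lurasidone library lay above every control library, and Lurasidone replicate 2 was the highest. The log2 fold change was 0.70 ± 0.17 (SE, n = 3 per group, limma adjusted p = 0.0345), and the mean level was 1.80 times that of the controls.

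The call for gabrr2a was lost in the same 5 fits. Its adjusted p was 0.136 without control replicate 1, 0.0666 without control replicate 2, 0.0579 without Lurasidone replicate 1, 0.103 without Lurasidone replicate 2 and 0.0772 without Lurasidone replicate 3, and 0.0436 without control replicate 3. In these fits the log2 fold change stayed between 0.58 and 0.77. By voom it was 0.84 with an adjusted p of 0.0462. A gene model on the opposite strand, CR759878.1, overlaps 10558 bases of its span and was listed at 0 in all 6 libraries.

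None of the other rho genes passed the test. The most abundant, gabrr1, stood at 12.3, 14.7 and 10.2 FPKM in control libraries and at 12.2, 13.4 and 11.7 FPKM in Lurasidone libraries, a log2 fold change of 0.02 (95% interval -0.36 to 0.40). Its neighbour on chromosome 20, gabrr2b, the duplicate of gabrr2a, was near 1 FPKM in both groups, a log2 fold change of 0.20 (interval -0.28 to 0.69). For gabrr3b, levels of 3.42, 3.36 and 3.95 FPKM in control libraries lay above 2.37, 3.26 and 2.35 FPKM in Lurasidone libraries, without passing the threshold (log2 fold change -0.33, limma adjusted p = 0.240). For gabrr3a the difference was -0.31 on the log2 scale (SE 0.20, limma adjusted p = 0.344). The summed level of the class was 22.6 ± 2.17 FPKM in control and 24.6 ± 2.78 FPKM in Lurasidone libraries (SD, n = 3).

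Among listed markers of retinal bipolar and amacrine cells, none passed the test in the direction of gabrr2a. Of 14 listed genes of bipolar and amacrine cells, 11 were tested, 0 were higher and 2 lower, against 5.79% and 3.9% of all tested genes. The lower genes were vsx1 (log2 fold change -0.84, limma adjusted p = 0.0267) and tfap2b (-0.68, limma adjusted p = 0.0336), both transcription factors, and cabp5b was listed at 0. Short of the threshold, the bipolar cell genes cabp5a (0.68, limma adjusted p = 0.0557) and prkcaa (0.52, limma adjusted p = 0.0979) were higher in all Lurasidone libraries, with log2 fold changes of the same sign as gabrr2a. At an unadjusted p of at most 0.05, 2 were higher and 3 lower, and by voom 0 were higher and 3 lower. Their summed level ran from 89.4 to 117 FPKM in control and from 91.1 to 94.0 FPKM in Lurasidone libraries. Of that sum, tfap2a alone held 47.1, 35.8 and 50.9 FPKM in control and 41.2, 42.2 and 42.0 FPKM in Lurasidone libraries. The list mixes cell types, and expression outside the retina was not separated. Neither its calls nor its sum therefore measure the cells that carry rho receptors. Of 12 photoreceptor markers, 4 were higher and 2 lower, beside the same 5.79% and 3.9% of all tested genes. Among the higher ones, gngt2a was listed at 0 in each control library and at 7.85, 1.81 and 1.49 FPKM in Lurasidone libraries. It thus reached the filter only through the group where it was high. The sum of the photoreceptor markers ran from 5074 to 6613 FPKM in control and from 3209 to 4177 FPKM in Lurasidone libraries. The part of retinal cell content in the gabrr2a result was not tested.

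**Figure D3:**
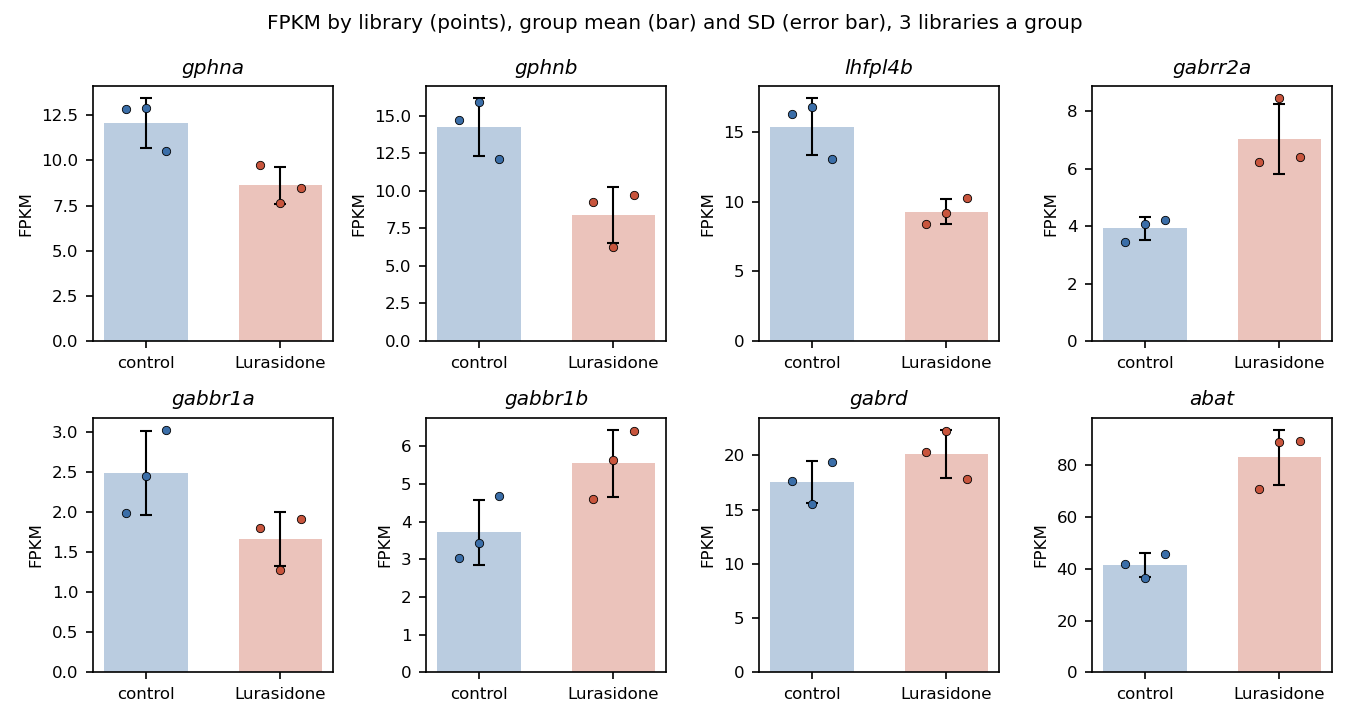
FPKM in each library (points), group mean (bar) and SD (error bar, n = 3) for both gephyrin genes, the auxiliary protein gene lhfpl4b, the rho subunit gene gabrr2a, both gabbr1 genes, the delta subunit gene gabrd and abat, which encodes GABA transaminase. The groups stand apart for gphna, gphnb, lhfpl4b, gabrr2a, gabbr1a and abat, and overlap for gabbr1b and gabrd. Groups stood apart for 33.3% of all tested genes and 26.7% of the tested members.

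The 7 alpha subunit genes set the ligand site of GABA-A receptors together with the beta subunit. None passed the test, with 5 positive and 2 negative log2 fold changes and a median of 0.08. The smallest p of the class was that of gabra3, at 1.79, 1.23 and 2.15 FPKM in control and 1.44, 1.16 and 0.453 FPKM in Lurasidone libraries (log2 fold change -0.45 ± 0.24 SE, limma adjusted p = 0.242). That gene model is only 834 bases long and held 5 to 26 fragments per library. In gabra2a the difference was 0.39 on the log2 scale (SE 0.23, limma adjusted p = 0.284).

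A pair of alpha genes, gabra6a and gabra6b, belong to the subunit type that mammals express mainly in cerebellar granule cells. Levels of gabra6b were 0.821, 1.03 and 0.849 FPKM in control and 1.06, 1.66 and 1.34 FPKM in Lurasidone libraries, without overlap but short of the threshold (log2 fold change 0.30, limma adjusted p = 0.296). The level of gabra6a overlapped between groups (log2 fold change 0.16). For gabra4 and gabra5 the log2 fold changes were 0.06 and -0.11.

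Beta subunits are needed for assembly and complete the GABA site. The leading one, gabrb2a, stood at 10.4, 10.9 and 10.4 FPKM in control libraries and at 9.84, 7.81 and 8.30 FPKM in Lurasidone libraries. All 3 Lurasidone libraries were lower, but the change did not pass the threshold (log2 fold change -0.27 ± 0.15 SE, limma adjusted p = 0.282). Levels of gabrb4 were 5.53, 4.21 and 6.17 FPKM against 3.11, 4.07 and 4.61 FPKM and overlapped (log2 fold change -0.35, limma adjusted p = 0.256). The gene gabrb1 stayed at 0.285 to 0.492 FPKM in all libraries and was not tested. Summed over the 4 genes, the class held 19.5, 17.6 and 20.1 FPKM in control and 16.5, 15.5 and 16.0 FPKM in Lurasidone libraries, a ratio of 0.839 with no overlap.

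The gamma subunits link receptors to synapses, and the delta subunit forms receptors outside them. The log2 fold change of gabrg1 was 0.09 (interval -0.50 to 0.68). For gabrd, 17.7, 15.5 and 19.4 FPKM in control libraries stood against 20.3, 22.3 and 17.9 FPKM in Lurasidone libraries, with overlapping groups (log2 fold change 0.19, interval -0.16 to 0.55, limma adjusted p = 0.459). No gene of either class passed the test.

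The rarest GABA-A subunit genes with a test were gabrp, the pi subunit, and gabrz, named zeta. Levels of gabrz were 0.448, 0.587 and 0.574 FPKM in control and 0.461, 1.81 and 1.09 FPKM in Lurasidone libraries, which overlap through Lurasidone replicate 1 (log2 fold change 0.42 ± 0.24 SE, limma adjusted p = 0.291). An antisense gene model, CT573003.1, shares 30355 bases of its span, introns included. The use of strand in counting is not given in the sources used here, and the overlap of exons was not measured. Whether reads of one model were counted for the other is therefore not known. In gabrp, 4 to 16 fragments per library gave a log2 fold change of 0.09.

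Several GABA-A subunit genes lie side by side in the genome, with fold changes of either sign. On chromosome 14, gabra6a and gabrb2a lie 3260 bases apart between 22152060 and 22273847 and had log2 fold changes of 0.16 and -0.27. On chromosome 13, gabra2a, gabrg1 and gabrb1 lie between 12120664 and 12375593, with log2 fold changes of 0.39 (gabra2a) and 0.09 (gabrg1).

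The makeup of the channel subunits overlapped between the groups for most classes. Summed over the 28 genes of pentamer subunits, the control libraries held 96.0, 95.7 and 106 FPKM and the Lurasidone libraries 98.0, 112 and 102 FPKM, a ratio of 1.05 with overlap. The rho subunits made up 22.9% ± 3.23 of this sum in control and 23.6% ± 1.05 in Lurasidone libraries (SD, n = 3), and alpha subunits 20.5% ± 1.40 and 21.5% ± 2.11. The delta subunit took 17.6% ± 1.23 and 19.4% ± 1.65, glycine receptor alpha subunits 12.5% ± 0.338 and 12.2% ± 0.860, and gamma subunits 5.18% ± 1.56 and 5.81% ± 0.415. The beta share was 20.4%, 18.4% and 19.0% in control libraries and 16.9%, 13.8% and 15.7% in Lurasidone libraries. Zeta and pi together took 1.10%, 0.893% and 0.908% in control and 1.24%, 2.20% and 1.26% in Lurasidone libraries. Among the named genes, the shares did not overlap for beta, which was lower, and for zeta and pi, which was higher. The class of zeta and pi summed to a mean of 0.959 FPKM in control and 1.66 FPKM in Lurasidone libraries. An unnamed model on chromosome 13 with the pi subunit as homolog, AL929217.1, is outside this sum. It stood at 1.96, 1.94 and 3.20 FPKM in control and 2.77, 2.40 and 2.39 FPKM in Lurasidone libraries. The zeta and pi separation was therefore read for the named genes only. These sums and shares leave out all 17 unnamed models with a receptor homolog, described below. Among them are ENSDARG00000098081, with a rho homolog (mean of 7.67 FPKM), and a model on chromosome 14 with an alpha homolog (5.27 FPKM). The rho and alpha sums are therefore incomplete. Models on alternate contigs held 78.9% (glrba), 99.5% (glrbb) and 44.7% (gabrz) of the FPKM of gene and model together. The glycine beta share is therefore understated.

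**Figure D4:**
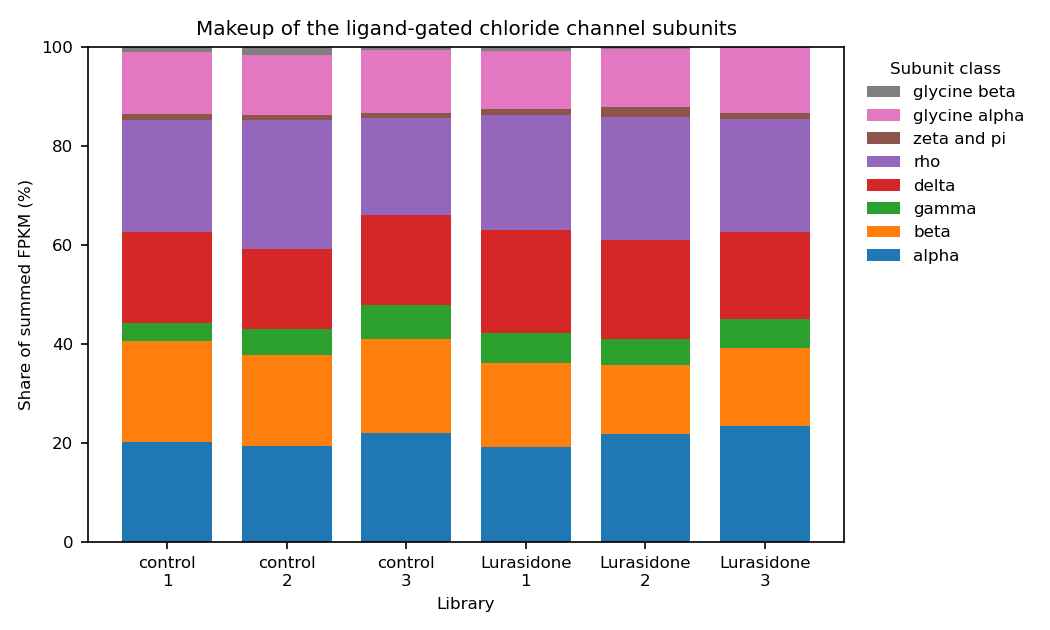
Share of each subunit class in the summed FPKM of the 28 genes of GABA-A and glycine receptor channel subunits, in percent, for each library. Unnamed models are left out, on alternate contigs and elsewhere, among them models with rho, alpha and pi homologs. Those on alternate contigs held 78.9% (glrba) and 99.5% (glrbb) of the FPKM of gene and model together, so the glycine beta share is understated. Beta subunits fill 18.4% to 20.4% of control and 13.8% to 16.9% of Lurasidone libraries, while the alpha, gamma, delta, rho and glycine alpha shares overlap between the groups.

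Glycine receptors carry fast inhibition in the spinal cord and hindbrain. Of the 5 alpha genes, 4 were tested and none passed, with log2 fold changes of 0.22 (glra1), -0.25 (glra2), 0.21 (glra3) and -0.22 (glra4a). The most abundant, glra1, stood at 3.32, 3.10 and 5.05 FPKM in control and 4.01, 4.83 and 4.82 FPKM in Lurasidone libraries, which overlap. In glra3, 3.07, 4.25 and 3.87 FPKM lay below 4.27, 4.47 and 4.59 FPKM, with the nearest libraries almost equal (log2 fold change 0.21, interval -0.16 to 0.58, limma adjusted p = 0.434). The fifth gene, glra4b, held 24, 5 and 12 fragments in control and 2, 10 and 2 in Lurasidone libraries and was too low to test.

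The beta subunit genes need a closer reading, because part of their fragments was counted on other gene models. Zebrafish have glrba and glrbb, the second being the gene of the touch-response mutant bandoneon. On chromosome 1, glrba held 0.832, 1.51 and 0.540 FPKM in control and 0.711, 0.524 and 0.218 FPKM in Lurasidone libraries (log2 fold change -0.39 ± 0.23 SE, limma adjusted p = 0.306). On chromosome 14, glrbb held only 4, 2 and 1 fragments in control libraries and 0 in each Lurasidone library. A count of 0 allows up to 0.0870 to 0.0880 FPKM in these 3 libraries, for counting error only, and 0.0268 to 0.101 FPKM was measured in the controls.

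Unnamed gene models on alternate contigs of GRCz11, which carry a second version of the same stretch of chromosome, matched 6 members by the named homolog, strand and stated span. Among the matched members were glrba, glrbb, glra4a, gabrz and gabra5. The unnamed models held 78.9% of the FPKM of the pair for glrba and 99.5% for glrbb, 50.7% for glra4a, 44.7% for gabrz and 27.7% for gabra5. The adding of both models was chosen after their values were seen.

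With its second model added, glrba stood at 3.44, 3.00 and 3.25 FPKM in control and 3.51, 3.61 and 3.79 FPKM in Lurasidone libraries, and the log2 fold change turned from -0.39 to 0.13 (interval -0.21 to 0.48). The direction for glrba thus depended on which models were counted, and neither value passed the test. For glrbb the sums were 7.66, 5.96 and 8.81 FPKM against 2.98, 3.26 and 9.17 FPKM, so that 2 Lurasidone libraries were the lowest and the third the highest of all 6 (log2 fold change -0.59 ± 0.33 SE, interval -1.33 to 0.15, limma adjusted p = 0.267). The gene pdgfc overlaps the span of glrbb by 40333 bases on the opposite strand. For gabrz the sums stood apart, at 1.02, 0.946 and 1.23 FPKM against 1.30, 2.73 and 1.78 FPKM, without passing the threshold (log2 fold change 0.48, limma adjusted p = 0.167). Adding the models left 1 member higher and 1 lower.

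**Figure D5:**
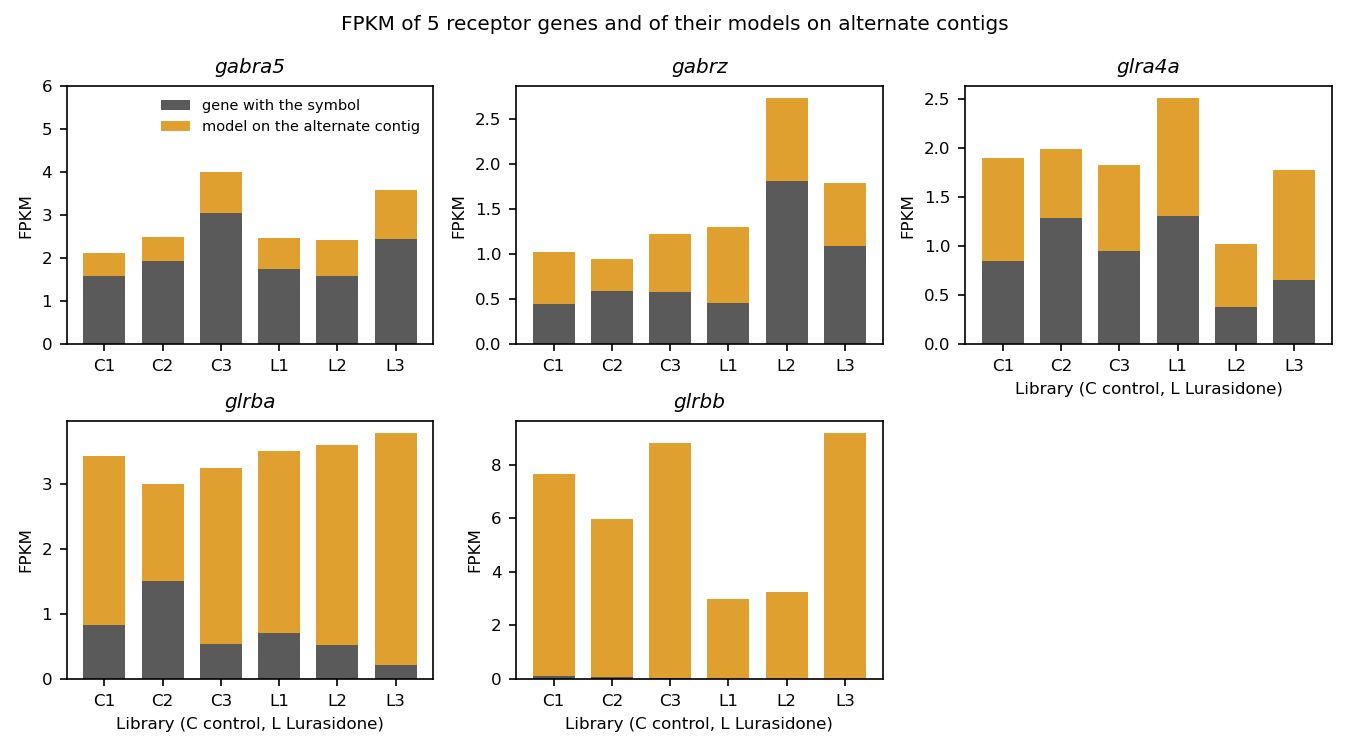
FPKM per library (C1 to C3 control, L1 to L3 Lurasidone) of 5 receptor genes (dark) with the gene model on the alternate contig stacked on top (orange). Most of the level of glrba (78.9%) and nearly all of that of glrbb (99.5%) lies on the alternate contig, and the glrbb sum is lowest in L1 and L2 and highest in L3.

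GABA-B receptors need a gabbr1 subunit, which binds GABA, and gabbr2, which couples to the G protein. The pair of gabbr1 genes had fold changes of opposite sign, and neither passed the threshold. Levels of gabbr1b were 3.04, 3.43 and 4.68 FPKM in control and 4.61, 5.63 and 6.39 FPKM in Lurasidone libraries, which overlap by a narrow margin (log2 fold change 0.48 ± 0.19 SE, limma adjusted p = 0.138). Levels of gabbr1a were 1.98, 2.45 and 3.03 FPKM against 1.81, 1.28 and 1.91 FPKM, which do not overlap (log2 fold change -0.39 ± 0.19 SE, limma adjusted p = 0.217). In gabbr2 the log2 fold change was 0.20 (interval -0.20 to 0.59). The difference between the changes of both gabbr1 genes was not tested.

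Other genes of inhibitory transmission were taken from 4 lists. Over all tested genes, 5.79% were higher and 3.9% lower, for comparison with the counts of each list. Of the genes for synthesis, vesicle loading and breakdown of GABA and glycine, 13 of 14 were in the table and tested, with 1 higher and 0 lower. The higher gene was abat, GABA transaminase, which breaks GABA down, at 41.9, 36.4 and 45.5 FPKM in control and 70.5, 88.9 and 89.2 FPKM in Lurasidone libraries. Its mean level was 2.01 times that of the controls (log2 fold change 0.99 ± 0.17 SE, limma adjusted p = 0.00901), and it passed 0.05 under each of 17 alternatives, including each fit without 1 library. The most abundant gene of the list, dldh, a shared subunit of mitochondrial enzyme complexes, had a log2 fold change of 0.05.

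The genes of the enzymes that make GABA did not pass the test. Levels of gad1b were 40.0, 46.7 and 40.8 FPKM in control and 46.9, 41.2 and 43.1 FPKM in Lurasidone libraries (log2 fold change 0.04, interval -0.30 to 0.38), and the log2 fold change of gad2 was 0.12. The vesicle transporter gene slc32a1 stood at 38.0, 40.4 and 39.2 FPKM against 35.2, 13.9 and 29.5 FPKM, lower in all Lurasidone libraries and lowest in replicate 2 (log2 fold change -0.66 ± 0.29 SE, limma adjusted p = 0.170).

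Of the membrane transporters for GABA and glycine, 5 of 8 listed genes were tested and 0 passed in either direction, also by voom and with p-values left unadjusted. The most abundant was slc6a1b, a GABA transporter, at -0.38 on the log2 scale (SE 0.20, limma adjusted p = 0.240). The glycine transporter gene slc6a5 was listed at 0 in all libraries, while an unnamed model with the same named homolog on an alternate contig of chromosome 7 held 1.60, 2.13 and 2.12 FPKM in control and 1.08, 1.69 and 1.79 FPKM in Lurasidone libraries. A listing at 0 is therefore no measure of that gene.

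The list of genes for proteins that anchor or accompany the receptors also held mocs1, mocs2 and mocs3, genes of molybdenum cofactor synthesis. Of its 42 genes, 35 were tested, with 0 higher and 1 lower. The lower gene was lhfpl4b, whose mammalian counterpart is an auxiliary protein that joins GABA-A receptors to neuroligin at synapses. It stood at 16.3, 16.8 and 13.0 FPKM in control and 8.42, 9.17 and 10.2 FPKM in Lurasidone libraries, without overlap (log2 fold change -0.67 ± 0.16 SE, limma adjusted p = 0.0337). Of the fits without 1 library, only the one without control replicate 3 kept it under 0.05 (adjusted p = 0.0241), and the other 5 gave 0.131 (control replicate 1), 0.0851 (control replicate 2), 0.0981 (Lurasidone replicate 1), 0.0849 (Lurasidone replicate 2) and 0.0693 (Lurasidone replicate 3). By voom its adjusted p was 0.0694, and 0 genes of this list passed. At an unadjusted p of at most 0.05, 3 were higher (mocs3, lhfpl3 and mocs1) and 3 lower (lhfpl4b, dynll1 and insyn1). The duplicate of lhfpl4b, lhfpl4a, differed by -0.35 on the log2 scale (SE 0.26, limma adjusted p = 0.417).

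The most abundant gene of the anchoring list was dynll1, a dynein light chain that binds gephyrin, at -0.42 on the log2 scale (SE 0.15, limma adjusted p = 0.114). Neither of the nlgn2 genes, which encode the neuroligin of inhibitory synapses, passed the test, with log2 fold changes of -0.21 (nlgn2a) and 0.34 (nlgn2b).

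Chloride transporters set the gradient that these channels use. Their list also held kinase genes (wnk, oxsr1 and stk39) and clcn2 chloride channel genes beside the slc12 cotransporters. Of all 18 listed genes, 14 were tested and 0 passed in either direction. At an unadjusted p of at most 0.05, 1 was higher and 1 lower, and by voom 1 was higher. The most abundant, slc12a7b, a potassium chloride cotransporter, differed by -0.66 on the log2 scale (SE 0.23, limma adjusted p = 0.104). The neuronal cotransporter genes slc12a5a and slc12a5b had log2 fold changes of -0.31 and -0.24, and slc12a2, which imports chloride, -0.13.

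The summed level of pan-neuronal markers was lower in all Lurasidone libraries, while most single markers did not pass the test. Of 28 listed pan-neuronal genes, 26 were tested, 0 were higher and 4 lower (tubb2, nefma, map2 and nefmb, genes of the neuronal cytoskeleton), 23 of the 26 had a negative log2 fold change, and syt1b was listed at 0. Over all tested genes, 5.79% were higher and 3.9% lower. The 4 lower markers ran from -0.995 (nefma) to -0.68 (map2), and the median of the list was -0.35. The call for nefma held in all 6 fits that left out 1 library, that for tubb2 in 3 (adjusted p of up to 0.102), and those for map2 and nefmb in 1 each (up to 0.141 and 0.0854). The most abundant marker, vamp2, a synaptic vesicle protein, had a log2 fold change of 0.02. The summed level of the list ran from 1082 to 1151 FPKM in control and from 829 to 905 FPKM in Lurasidone libraries. By voom 0 were higher and 6 lower.

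Of 15 listed markers of inhibitory neurons, 14 were tested, 0 were higher and 1 lower, against 5.79% and 3.9% of all tested genes. The lower gene was dlx2a, a transcription factor of forebrain inhibitory neurons (log2 fold change -0.71, limma adjusted p = 0.0277). Its adjusted p was 0.120 without control replicate 1, 0.0710 without Lurasidone replicate 1 and 0.0988 without Lurasidone replicate 3, and under 0.05 in the other 3 such fits. The sum of the list ran from 282 to 287 FPKM in control and from 201 to 265 FPKM in Lurasidone libraries, and slc6a5 was listed at 0. Of 11 astroglia markers, 10 were tested, with 1 higher and 2 lower, beside the same 5.79% and 3.9% of all tested genes. Their sum ran from 838 to 1050 FPKM in control and from 614 to 812 FPKM in Lurasidone libraries.

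Set against the pan-neuronal sum, the 33 members together stood at 12.2%, 12.0% and 12.1% in control libraries and at 14.0%, 16.4% and 14.7% in Lurasidone libraries. The summed members alone overlapped, at 132, 133 and 140 FPKM in control and 127, 136 and 132 FPKM in Lurasidone libraries. Relative to the same sum, gephyrin stood at 2.55%, 2.60% and 1.97% against 2.10%, 1.67% and 2.02%, and the beta subunits at 1.81%, 1.59% and 1.75% against 1.83%, 1.87% and 1.78%. On this scale both classes overlapped between the groups, whereas their FPKM sums did not. The rho subunits stood at 2.01%, 2.26% and 1.82% against 2.51%, 3.35% and 2.59%. Being higher in all Lurasidone libraries on this scale was not particular to rho. It was also seen for the alpha, gamma, delta, zeta and pi, glycine alpha and GABA-B classes. The pan-neuronal sum itself was lower in all Lurasidone libraries. The part of neuronal content in the gephyrin, beta subunit and gabrr2a results was not tested.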

How the data were processed

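The authors sequenced 6 libraries and deposited 1 table of FPKM per gene with gene length, position and description. The submitters' processing notes name GRCz11 and danRer11, and the aligner and counter are not given in the sources used here. FPKM multiplied by gene length gave whole fragments for 100% of values, within 0.01 plus a small part of the count. This tolerance is looser for abundant genes. The sum of these fragments was 84.5% (control replicate 3) to 104% (control replicate 2) of the library size implied by the FPKM scaling. Groups and replicates came from the labels, and 0 columns of unknown samples were left out. Whether replicates were separate clutches is not given, so p-values measure the spread between these libraries.

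The main test was limma 3.58.1 (R 4.3.3) with a variance trend on log2(FPKM + 1), a scale that understates changes of low genes. Genes needed 0.5 FPKM in 3 libraries. P-values were adjusted by Benjamini-Hochberg over all tested genes. The code was tested on simulated data, where the main fit made more false calls than the nominal rate and voom did not, so adjusted p-values near 0.05 are less firm than they read. Alternatives were no trend, median-ratio and quantile scaling, a pseudocount of 0.1, other filters, a gene length correction (loess span 0.5), a replicate block, limma's treat, voom on recovered fragments, leaving out each library, and adding alternate-contig models.

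Members called, and in each class the most abundant member and that with the smallest p, were named with values, and other members as part of the set. Values of a few single genes are not reported here, and counts and class sums include them. From the 4 pathway lists, the called genes (at most 4 by p) and the most abundant were named by rule. Marker genes and other list genes (lhfpl3, lhfpl4a, insyn1, mocs1, mocs2, mocs3, nlgn2a, nlgn2b, gad1b, gad2, slc32a1, slc12a5a, slc12a5b, slc12a2) were named after their values were seen. Members and lists were chosen with earlier results of these data known. All 33 members matched the symbol table. Figures were drawn with matplotlib 3.10.9.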

Additional observations from a re-analysis of the deposited data

How the results depend on the processing

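The direction of gabrr2a and of gphnb was kept in the 17 alternatives that give a fold change (limma's treat gave only a count). With a replicate block, and with a replicate block and the gene length correction, 0 members were higher and 0 lower (adjusted p of 0.0594 and 0.0554 for gabrr2a and 0.0928 and 0.0860 for gphnb). The deviations of same-numbered libraries correlated at 0.12, -0.10 and 0.01, and not every library correlated best with its own number, so the numbers were not taken to pair the libraries. With no filter on low values both counts were 0. The lower count was 0 with no variance trend, quantile normalization or a pseudocount of 0.1 (adjusted p of 0.0571, 0.0516 and 0.0544 for gphnb). At an unadjusted p both counts were 2. Leaving out 1 library in turn gave 0 to 1 higher and 0 to 1 lower, and only the fit without control replicate 3 kept both calls. No alternative gave a member past the fold threshold.

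The median log2 fold change of the members was 0.0185 with a filter of 5 FPKM and -0.0048 to 0.0781 without 1 library. Medians of classes with few or low genes moved most. With a pseudocount of 0.1, the median of zeta and pi was 0.48 and that of glycine beta -0.86. By voom they were 0.51 and -1.63, beta was -0.11 and glycine alpha -0.36. These glycine beta medians leave out the alternate-contig models, which held 78.9% (glrba) and 99.5% (glrbb) of the FPKM of the pair. With no filter, beta was -0.11 and glycine alpha -0.22. With a filter of 5 FPKM, rho was 0.36. Without 1 library, alpha ran from 0.0042 to 0.2542 and zeta and pi from 0.1888 to 0.6609.

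In 10 of 484 pairs of gene and alternative, from 8 genes short of the threshold, the sign changed, and the largest of them in the main fit was glrba at -0.39. Depth limits genes such as gabrp, gabra3 and glra4b, which held under 30 fragments in every library. The count of glrbb was also under 30, but its alternate-contig model held 99.5% of the FPKM of the pair.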

Other observations

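The table also holds 17 gene models without a receptor symbol whose description names a GABA or glycine receptor homolog, 6 of them the alternate-contig models described above. Of the 17, 14 were tested and 0 passed in either direction with limma, 0 at an unadjusted p of at most 0.05 and 0 by voom. The most abundant was ENSDARG00000098081 on chromosome 17, with the rho-1 subunit as named homolog, at 11.1, 6.14 and 7.15 FPKM in control and 6.22, 6.10 and 9.26 FPKM in Lurasidone libraries, which overlap (log2 fold change -0.14). Next came the alternate-contig model matched to glrbb, with a mean of 6.28 FPKM over the 6 libraries. After it came an unnamed model on chromosome 14 (3114253 to 3116989, minus strand), with the alpha-2 subunit as homolog. This alpha-2 model stood at 4.96, 5.01 and 7.35 FPKM against 4.54, 4.90 and 4.88 FPKM, lower in all Lurasidone libraries (log2 fold change -0.21, limma adjusted p = 0.469). An unnamed model on an unplaced contig, with the alpha-3 subunit as homolog, stood at 2.49, 2.79 and 3.54 FPKM against 3.56, 3.46 and 4.23 FPKM (log2 fold change 0.28, limma adjusted p = 0.328). The symbol gabra3 itself belongs to a model of 834 bases, against 11403 bases for this one. The smallest p among the 17 was that of ENSDARG00000100032 on chromosome 21, with the beta-2 subunit as homolog, at 0.686, 1.46 and 1.91 FPKM against 0.938, 0.492 and 0.548 FPKM (log2 fold change -0.48 ± 0.24 SE, limma adjusted p = 0.216). It lies 23320 bases from gabra6b.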
